A study of Mus musculus with 6 samples.

Results

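The genes examined were 6 variants of histone H2A, namely Macroh2a1, Macroh2a2, H2ax, H2az1, H2az2 and H2aj (H2afy, H2afy2, H2afx, H2afz, H2afv and H2afj in older annotation). They were taken as all probe sets that the platform annotation gives to 1 of these symbols alone, which made 10 of 45037 non-control probe sets, for 6 of 18193 named genes. Gene expression had been measured on 6 one-colour arrays in B16-F1, a melanoma line that comes from C57BL/6J mice. All cells held a short hairpin RNA (shRNA) after stable lentiviral infection, directed against macroH2A1 in the macroH2A1 shRNA line, against macroH2A2 in the macroH2A2 shRNA line and against GFP in the control line, so that the controls share the virus and the hairpin processing. Each line had 2 replicates, described as independent and biological, grown in DMEM with serum and given no further treatment. The sources used here do not say how many hairpins were used per gene or whether a line is a clone or a pool. The arrays of each target are treated here as 1 line.

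Histone variants replace the bulk H2A in some nucleosomes, and most are made outside the S-phase programme of histone genes. MacroH2A proteins carry a large macro domain behind the histone fold and are found in repressed chromatin, and in melanoma they have been described as suppressors of progression. H2AX is phosphorylated around DNA double-strand breaks, H2A.Z marks nucleosomes beside transcription start sites and is placed there by the SRCAP and p400 remodellers, and H2A.J is a close relative of bulk H2A that accumulates in senescent cells.

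Signals are the deposited linear intensities, and differences were tested on log2(signal + 16), so every log2 fold change below is on that scale. The 2% trimmed mean was 150.0 on all 6 arrays, so a change in total signal between lines cannot be seen. The median signal still differed, at 24.6, 20.6 and 19.5 on the replicate 1 arrays of the control, macroH2A1 shRNA and macroH2A2 shRNA lines. On their replicate 2 arrays it was 15.1, 15.4 and 16.2. The part of this offset in the correlations between replicate sets given below was not tested. All 12 melanocyte markers passed the signal filter of 10.4 units by their mean. The dimmest were Ednrb, with a mean of 11.7, and Kit, with a mean of 52.9. Ednrb read under the filter on control replicate 2 (8.0) and macroH2A2 shRNA replicate 1 (7.6). The summed signal of the 12 lay between 41696 and 53340. It was 45543 and 53340 in the macroH2A1 shRNA line against 42387 and 43350 in the control line. In that comparison 9 of the 12 were higher and 3 lower, among the latter Tyr, the tyrosinase of pigment synthesis, at 1450.3 and 1443.2 against 1917.2 and 2031.7 (log2 fold change -0.44, SE 0.13, limma adjusted p 0.880). Of the leukocyte, fibroblast, keratinocyte and endothelial markers, 7 of 25 on the array passed the filter, the brightest being Col1a2 with a mean of 62.0. Among them Pdgfra, a fibroblast marker, read 82.9 and 52.4 with control shRNA against 24.4 to 32.5 on the 4 other arrays, and its part in the results was not tested. Across the lines, the differences between replicate 1 and replicate 2 correlated at 0.576, 0.372 and 0.415 over 27025 tested probe sets, so values within each replicate set, and from a fit in which replicate number is a blocking factor (the block below), are given where they matter. With 2 arrays against 2, an exact two-sided permutation test of a single gene cannot go below a p of 0.333, so the p-values are those of limma, which pools the spread over all probe sets.

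Macroh2a1, the target of the first hairpin, was measured by 1 probe set (1424572_a_at), and its values do not separate the splice forms of the gene. The control arrays read 1212.7 and 1262.4, the macroH2A1 shRNA arrays 444.2 and 319.1, and the macroH2A2 shRNA arrays 1271.2 and 1170.5. Both macroH2A1 shRNA arrays lay far below the 4 others, which overlapped each other. The remaining signal in the macroH2A1 shRNA line was 36.6% of control in replicate set 1 and 25.3% in set 2. The log2 fold change was -1.67 (SE 0.17, 95% interval -2.07 to -1.28, n = 2 arrays per line), a 3.19-fold lower level. It had the second smallest p of all tested probe sets (limma adjusted p 0.123) and passed the threshold of 0.05 with the replicate block (limma adjusted p 0.00120). Without the block 0 of 27025 probe sets passed in this comparison (0%), although 1189 (4.4%) had an unadjusted p under 0.05. With it 52 passed (0.192%). Among the 9 tested probe sets of the H2A variants, 1 passed with the block, that of the targeted gene itself. These are bulk cultures, so a loss in a share of the cells and a lower level in every cell cannot be told apart.

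In the macroH2A2 shRNA line Macroh2a1 differed little from control. Its log2 fold change there was -0.02 (SE 0.17), with an interval of -0.41 to 0.37, so that a level below 0.751 times or above 1.29 times that of the control line lay outside it. The difference between both shRNA lines was 1.65 (SE 0.17, limma adjusted p 0.309, and 0.00545 with the block). In that comparison 0 probe sets passed without the block (0%). With the block 1 of 27025 passed (0.0037%), and it was the Macroh2a1 probe set. On these arrays Macroh2a1 was thus the single gene called between both shRNA lines, and only with the block.

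**Figure D1:**
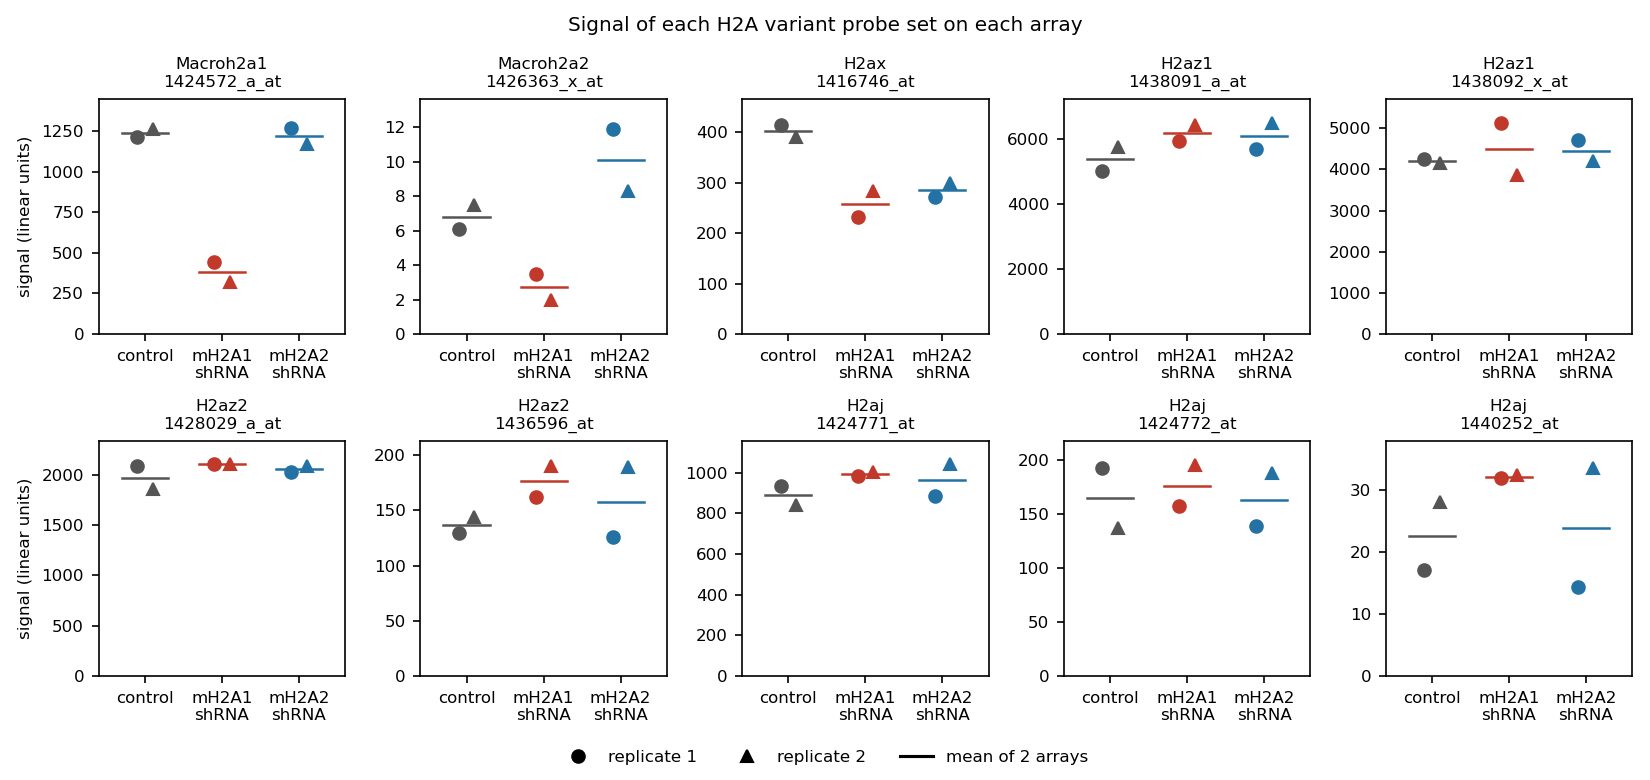
Signal of each of the 10 probe sets on each array, in linear units from 0, with replicate 1 as circles, replicate 2 as triangles and the mean of 2 arrays as a line. Macroh2a1 is low on both macroH2A1 shRNA arrays, H2ax is lower on the 4 shRNA arrays directed at macroH2A than on both control arrays, and of the H2A.Z and H2A.J probe sets H2az2 1428029_a_at has the narrowest range (1.14-fold) and H2aj 1440252_at the widest (2.34-fold).

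The genes most like Macroh2a1 over the 6 arrays were sought among 12087 others by the root mean square difference of log2 values, each centred on its own mean. The nearest was Trim47, a tripartite motif protein, at a difference of 0.33, with signals of 40.7 and 45.9 with control shRNA, 13.1 and 5.6 with macroH2A1 shRNA and 32.0 and 26.4 with macroH2A2 shRNA. It was followed by Apip, an enzyme of methionine salvage (0.38), Phlda2, an imprinted gene (0.39), Ifi27l2a, an interferon-induced gene (0.40), and Plscr4, a phospholipid scramblase (0.42). Their log2 fold changes in the macroH2A1 shRNA line ran from -1.24 for Trim47 to -0.74 for Plscr4, so none was as far from control as Macroh2a1 at -1.67. These values follow from the way the genes were chosen, so they are a description with no test. Apip and Plscr4 read above the filter of 10.4 units on every array, with lowest signals of 294.8 and 41.6. Trim47 and Phlda2 fell under it on 1 macroH2A1 shRNA array, at 5.6 and 5.5, and Ifi27l2a on both, at 1.3 and 1.6, so these 3 were tested through the lines where they are high.

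Macroh2a2, the target of the other hairpin, was measured by 1 probe set of its own (1426363_x_at), of a kind in which some probes are shared with other transcripts. Its signals were 6.1 and 7.5 with control shRNA, 3.5 and 2.0 with macroH2A1 shRNA and 11.9 and 8.3 with macroH2A2 shRNA. The mean of 6.55 lay under the filter of 10.4 units, so this member was not among the 9 tested probe sets. The macroH2A2 shRNA arrays read higher than the control arrays, not lower. In a fit without the filter the log2 fold change was 0.19 (SE 0.16, interval -0.19 to 0.57) in the macroH2A2 shRNA line and -0.28 (SE 0.16, interval -0.66 to 0.10) in the macroH2A1 shRNA line, both with a limma adjusted p of 1. A knockdown of Macroh2a2 was not detectable at this signal. That the line labelled macroH2A2 shRNA holds less Macroh2a2 therefore rests on its label alone. A further probe set that the annotation gives to Macroh2a2 together with another gene was left out.

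H2ax, which encodes the variant that is phosphorylated at DNA breaks, stood farthest below control after Macroh2a1 in the macroH2A1 shRNA line, and farthest below it of all tested members in the macroH2A2 shRNA line. Its probe set (1416746_at) read 414.4 and 390.6 with control shRNA, 231.8 and 283.2 with macroH2A1 shRNA and 271.9 and 299.4 with macroH2A2 shRNA. All 4 shRNA arrays lay below both control arrays, as did 6.89% of tested probe sets. The level was 63.98% of control with macroH2A1 shRNA and 71.0% with macroH2A2 shRNA. Within replicate set 1 these shares were 55.9% and 65.6%, and within set 2 they were 72.5% and 76.7%.

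The log2 fold change of H2ax was -0.62 (SE 0.16, interval -1.0 to -0.24) for macroH2A1 shRNA and -0.47 (SE 0.16, interval -0.85 to -0.10) for macroH2A2 shRNA. The unadjusted limma p was 0.00538 and 0.0201, which placed H2ax at rank 166 and 507 of 27025 probe sets, and neither passed when adjusted over all of them (limma adjusted p 0.876 and 1). With the block the adjusted p was 0.182 and 0.340. In the macroH2A1 shRNA comparison it came under 0.05 in 2 of 10 blocked fits, at 0.0221 without macroH2A2 shRNA replicate 1 and 0.0223 without macroH2A2 shRNA replicate 2, fits that called 515 and 514 probe sets in place of 52. Both differences share the 2 control arrays. Between the shRNA lines H2ax differed by 0.15 (SE 0.16, interval -0.23 to 0.52), and the arrays of these lines overlapped. The nearest genes with a probe set of their own on either side of H2ax were Dpagt1 and Vps11. Their log2 fold changes were -0.15 (SE 0.16) and -0.05 (SE 0.17) with macroH2A1 shRNA and -0.03 and -0.04 with macroH2A2 shRNA.

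H2ax is known to be transcribed more in dividing cells, so a list of 24 proliferation genes was read beside it. Of the 23 tested, 16 were higher with macroH2A1 shRNA (median log2 fold change 0.03) and 13 with macroH2A2 shRNA (median 0.02), where the medians of all tested probe sets were both -0.03. The latter medians depend on the scaling, at 0.0033 and 0.0072 with quantile normalization and 0.037 and 0.044 with arrays centred on their median. The values of the 23 ran from -0.23 for Aurkb, a mitotic kinase, to 0.20 for Mcm2, a subunit of the replicative helicase, in the first comparison. None of the 23 passed, with or without the block. Their medians within sets were 0.02 and 0.08 for macroH2A1 shRNA but 0.28 and -0.16 for macroH2A2 shRNA. Their part in the H2ax values was not tested.

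**Figure D2:**
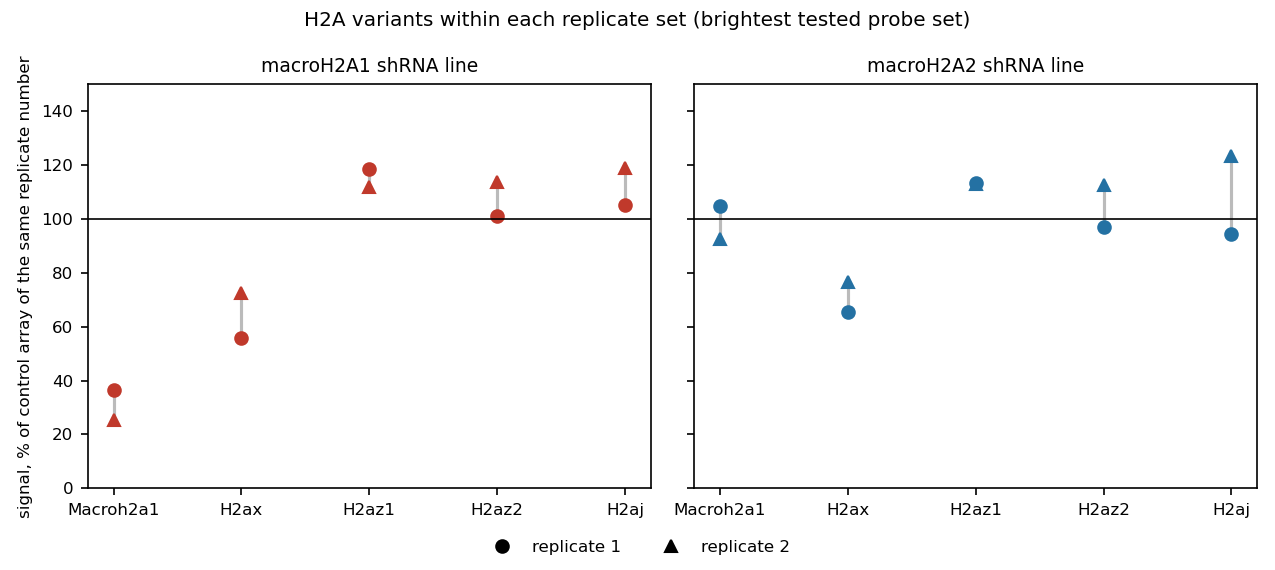
Signal of the brightest tested probe set of each variant as a percentage of the control array with the same replicate number, for replicate 1 (circles) and replicate 2 (triangles), with a line at 100%. Macroh2a1 stands at 36.6% and 25.3% in the macroH2A1 shRNA line, H2ax between 55.9% and 76.7% on its 4 arrays, and H2az1, H2az2 and H2aj between 94.4% and 123%.

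H2A.Z is encoded by H2az1 and H2az2, whose products are nearly identical. The brightest H2az1 probe set (1438091_a_at) read 5016.5 and 5745.8 with control shRNA, 5952.7 and 6433.7 with macroH2A1 shRNA and 5689.3 and 6502.9 with macroH2A2 shRNA. The macroH2A1 shRNA arrays lay above both controls and the macroH2A2 shRNA arrays overlapped them. It differed from control by 0.20 (SE 0.12, interval -0.06 to 0.47) and 0.18 (SE 0.12, interval -0.09 to 0.45) on the log2 scale. After quantile normalization the first turned to -0.0032, so no direction can be given for it. In all 3 lines this probe set was brighter on the replicate 2 array, by 0.20, 0.11 and 0.19 on the log2 scale.

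A second H2az1 probe set (1438092_x_at), of the kind with shared probes, had the opposite order of replicates, with 4249.3 over 4150.2, 5133.2 over 3866.5 and 4705.7 over 4194.4 in the control, macroH2A1 shRNA and macroH2A2 shRNA lines. Its log2 fold changes were 0.08 (SE 0.14) in both comparisons, and both turned negative after quantile normalization. Without the block all 4 intervals of the H2az1 probe sets include 0. With it the interval of the brightest probe set in the macroH2A1 shRNA line was 0.017 to 0.39, which lies above 0, at a limma adjusted p of 0.508. The probe sets placed the replicates in opposite order. A further 2 probe sets annotated to H2az1 together with another gene were left out.

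H2az2 read 2091.9 and 1854.6 with control shRNA, 2111.9 and 2109.0 with macroH2A1 shRNA and 2027.4 and 2087.5 with macroH2A2 shRNA with its brightest probe set (1428029_a_at). Its highest array was 1.14 times its lowest, the narrowest range of the 10 probe sets. The log2 fold changes were 0.10 (interval -0.16 to 0.36) and 0.06 (interval -0.20 to 0.33), each with an SE of 0.11, so levels below 0.893 times and above 1.28 times control lay outside the interval for macroH2A1 shRNA. The dimmer H2az2 probe set (1436596_at) read 129.2 and 143.8, 162.2 and 190.4, and 125.6 and 189.5 in the same order of lines, and its log2 fold changes were 0.33 (SE 0.22) and 0.16 (SE 0.22). Neither probe set passed in either comparison.

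The promoters of the H2A.Z pair and of Macroh2a1 are shown because the first are paralogues and the last is the target of the macroH2A1 hairpin. A link between these sequences and the values over the lines was not tested. Windows from 250 bases before to 50 after the transcription start were available from RefSeq (GRCm38.p6) for 5 of the 6 genes, all but H2ax. The motif CCAAT, a known binding site of the NF-Y factor in many histone and cell cycle promoters, was searched on both strands (CCAAT or ATTGG, in capitals below). H2az2 held 4 copies, H2az1 and H2aj 3 each, Macroh2a2 1 and Macroh2a1 0. Of 32851 windows of this length, 37.4% held at least 1 copy, 3.37% at least 3 and 1.06% at least 4. The sequence TATAAA was in none of the 5 windows (13.6% of all windows hold it on either strand), and CACGTG was in that of H2az1 (7.15% of all), where it overlaps no CCAAT. A match is a description of these letters and not evidence of binding. The H2az1 window lies at chr3:137864237-137864536 on the plus strand, that of H2az2 at chr11:6444394-6444693 on the minus strand and that of Macroh2a1 at chr13:56135501-56135800 on the minus strand, each written 5′ to 3′ in the direction of transcription.
H2az1: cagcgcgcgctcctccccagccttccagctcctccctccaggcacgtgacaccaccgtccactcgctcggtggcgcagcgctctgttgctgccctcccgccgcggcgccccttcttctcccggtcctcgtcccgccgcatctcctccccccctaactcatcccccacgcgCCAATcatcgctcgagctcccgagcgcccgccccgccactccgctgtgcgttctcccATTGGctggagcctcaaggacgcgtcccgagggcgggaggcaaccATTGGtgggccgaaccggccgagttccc
H2az2: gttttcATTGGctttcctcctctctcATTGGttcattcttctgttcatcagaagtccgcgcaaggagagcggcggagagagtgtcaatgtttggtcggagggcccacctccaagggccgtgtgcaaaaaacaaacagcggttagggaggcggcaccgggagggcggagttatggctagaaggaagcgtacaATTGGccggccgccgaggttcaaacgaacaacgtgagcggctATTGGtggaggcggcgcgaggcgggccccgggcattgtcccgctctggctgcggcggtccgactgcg
Macroh2a1: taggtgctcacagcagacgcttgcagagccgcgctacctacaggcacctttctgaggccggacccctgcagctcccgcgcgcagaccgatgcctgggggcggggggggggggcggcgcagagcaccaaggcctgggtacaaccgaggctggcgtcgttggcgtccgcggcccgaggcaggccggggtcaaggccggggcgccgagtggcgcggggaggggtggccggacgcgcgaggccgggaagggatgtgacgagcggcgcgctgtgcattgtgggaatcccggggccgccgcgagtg
The Macroh2a1 window was rich in CpG, with 37 CpG dinucleotides against 34 in H2az1, 27 in H2az2, 23 in Macroh2a2 and 17 in H2aj, where the median of all windows was 7.

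H2aj was measured by 3 probe sets. The brightest (1424771_at) read 935.7 and 842.8 with control shRNA, 983.6 and 1001.2 with macroH2A1 shRNA and 883.0 and 1040.7 with macroH2A2 shRNA. The macroH2A1 shRNA arrays lay just above both controls, while of the macroH2A2 shRNA arrays replicate 1 lay between the controls and replicate 2 above them. It differed from control by 0.16 (SE 0.14, interval -0.16 to 0.47) and 0.11 (SE 0.14, interval -0.21 to 0.43) on the log2 scale. The other probe sets were dimmer and less precise. One (1424772_at) read from 137.1 to 195.2 with log2 fold changes of 0.10 (SE 0.23) and -0.01 (SE 0.23), and the last (1440252_at) read from 14.3 to 33.5 with 0.33 (SE 0.30) and 0.02 (SE 0.30). None of the 3 passed in either comparison.

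In the macroH2A2 shRNA comparison 0 of the 9 tested probe sets passed the threshold, with or without the block, against 0 (0%) and 39 (0.144%) of all tested probe sets. At an unadjusted limma p under 0.05 there was 1 of 9, H2ax, against 3.98% of all, and in the macroH2A1 shRNA comparison there were 2 of 9, H2ax and the hairpin's own target Macroh2a1, against 4.4% of all. Arrays of the lines compared did not overlap for 7 of the 9 in the macroH2A1 shRNA comparison, 2 lower and 5 higher, where 27.9% of all tested probe sets did not overlap. They did not overlap for 1 of 9 in the macroH2A2 shRNA comparison, where the share of all was 29.2%. Several of these probe sets measure the same gene, so they are not independent of each other.

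**Figure D3:**
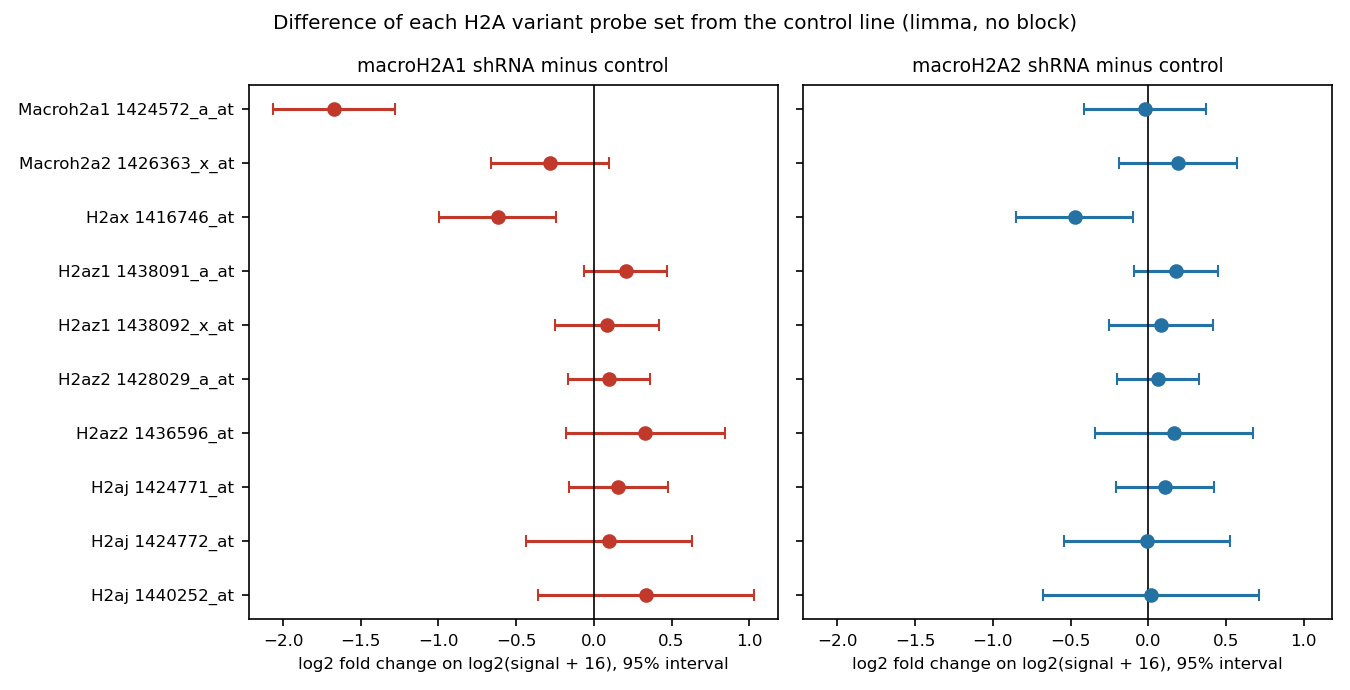
Log2 fold change of each of the 10 probe sets from the control line on the log2(signal + 16) scale, with the 95% interval from limma without the block, for both shRNA lines. The interval excludes 0 for Macroh2a1 in the macroH2A1 shRNA line and for H2ax in both lines, and includes 0 for every other probe set shown.

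The genes that place, remove or read these variants were described from lists. Of 31 tested genes of H2A.Z exchange, 13 were higher and 18 lower with macroH2A1 shRNA (median -0.011) and 23 higher and 8 lower with macroH2A2 shRNA (median 0.06), where 44.4% and 44.3% of all tested probe sets were higher. The list median for macroH2A2 shRNA was 0.095 within replicate set 1 and -0.016 within set 2. For macroH2A1 shRNA these medians were 0.00055 and 0.0068. None of the 31 passed in either comparison, with or without the block. With the smallest p in the first stood Ing3, a subunit of the TIP60 acetyltransferase complex, at -0.34 (SE 0.16), Vps72, the H2A.Z-binding subunit of SRCAP and TIP60 (0.29, SE 0.17), Uchl5, a deubiquitinase of INO80 and the proteasome (-0.29, SE 0.17), and Actl6a, an actin-related subunit (0.32, SE 0.19). In the second they were Ino80e, a subunit of INO80 (0.54, SE 0.20), Actl6a (0.46, SE 0.19), Mrgbp, a subunit of TIP60 (-0.41, SE 0.18), and Mcrs1, a subunit of INO80 (0.33, SE 0.15). The Ino80e arrays read 58.8 and 75.2 with control shRNA, 74.5 and 77.7 with macroH2A1 shRNA and 102.8 and 105.0 with macroH2A2 shRNA. Both arrays of the last line read above all arrays of the other lines. Between macroH2A2 shRNA and control the arrays did not overlap for 29.2% of all tested probe sets. The unadjusted limma p of Ino80e there was 0.0255, and its limma adjusted p with the block was 0.331.

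Of 28 tested genes of H2AX signalling, which include the kinases that phosphorylate H2AX, its phosphatases and the proteins that bind it, 18 were higher in each comparison, with medians of 0.09 and 0.07, and none passed. Brca1, a repair ubiquitin ligase that this list and the macroH2A list share, read 908.8 and 1105.9 with control shRNA, 1221.5 and 2000.9 with macroH2A1 shRNA and 1307.8 and 1620.7 with macroH2A2 shRNA. All 4 shRNA arrays were above both control arrays, as were those of 5.83% of tested probe sets. The changes on the log2 scale were 0.63 (SE 0.23) and 0.53 (SE 0.23), with limma adjusted p values of 0.114 and 0.192 with the block. Next in the macroH2A1 shRNA comparison came Rnf8, the ubiquitin ligase recruited to marked breaks (0.37, SE 0.17), Baz1b, a kinase of H2AX (0.22, SE 0.16), and Eya3, an H2AX phosphatase (0.34, SE 0.24). In the macroH2A2 shRNA comparison Eya1, a related phosphatase, was at 0.43 (SE 0.14), Prkdc, the DNA-dependent kinase, at -0.30 (SE 0.17), and Ppp4c, a phosphatase, at 0.22 (SE 0.13).

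Of 14 tested genes that handle macroH2A, 6 were higher with macroH2A1 shRNA and 7 with macroH2A2 shRNA (medians -0.0053 and 0.022), and none passed. After Brca1 the smallest p in the first belonged to Hells, a remodeller of the SNF2 family that exchanges macroH2A (-0.32, SE 0.19), followed by Supt16, a subunit of FACT (0.14, SE 0.16), and Rbfox2, a splicing factor (-0.17, SE 0.21). In the second they were Cul3, a ubiquitin ligase scaffold (0.20, SE 0.13), the noncoding RNA Xist (-0.33, SE 0.29, at 20.7 and 10.2 on the control arrays) and Chd4, a remodeller (-0.15, SE 0.20). Of 13 general H2A chaperones 11 and 9 were higher (medians 0.05 and 0.04) and none passed. Of all tested probe sets 44.4% and 44.3% were higher. Within replicate sets 1 and 2 the chaperone medians were 0.11 and 0.17 for macroH2A1 shRNA but 0.23 and -0.09 for macroH2A2 shRNA. Npm1, the nucleolar chaperone nucleophosmin, was at 0.26 (SE 0.09) and 0.18 (SE 0.09). Asf1a, a chaperone of H3 and H4 that the list also held, read 615.3 and 748.5, 801.0 and 883.2, and 931.3 and 1062.5 in the control, macroH2A1 shRNA and macroH2A2 shRNA lines. Its log2 fold changes were 0.30 (SE 0.15) and 0.54 (SE 0.15), the latter with an unadjusted limma p of 0.00735 and an adjusted p of 0.929.

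Among other H2A genes, 5 of 46 listed symbols were on the array under a name of their own and 2 passed the filter. H2aw read 407.3 and 331.2 with control shRNA, 264.7 and 259.3 with macroH2A1 shRNA and 233.6 and 365.9 with macroH2A2 shRNA, with log2 fold changes of -0.46 (SE 0.22) and -0.31 (SE 0.22). H2ac19 was at 0.17 (SE 0.27) and 0.11 (SE 0.27). Neither passed the threshold.

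**Figure D4:**
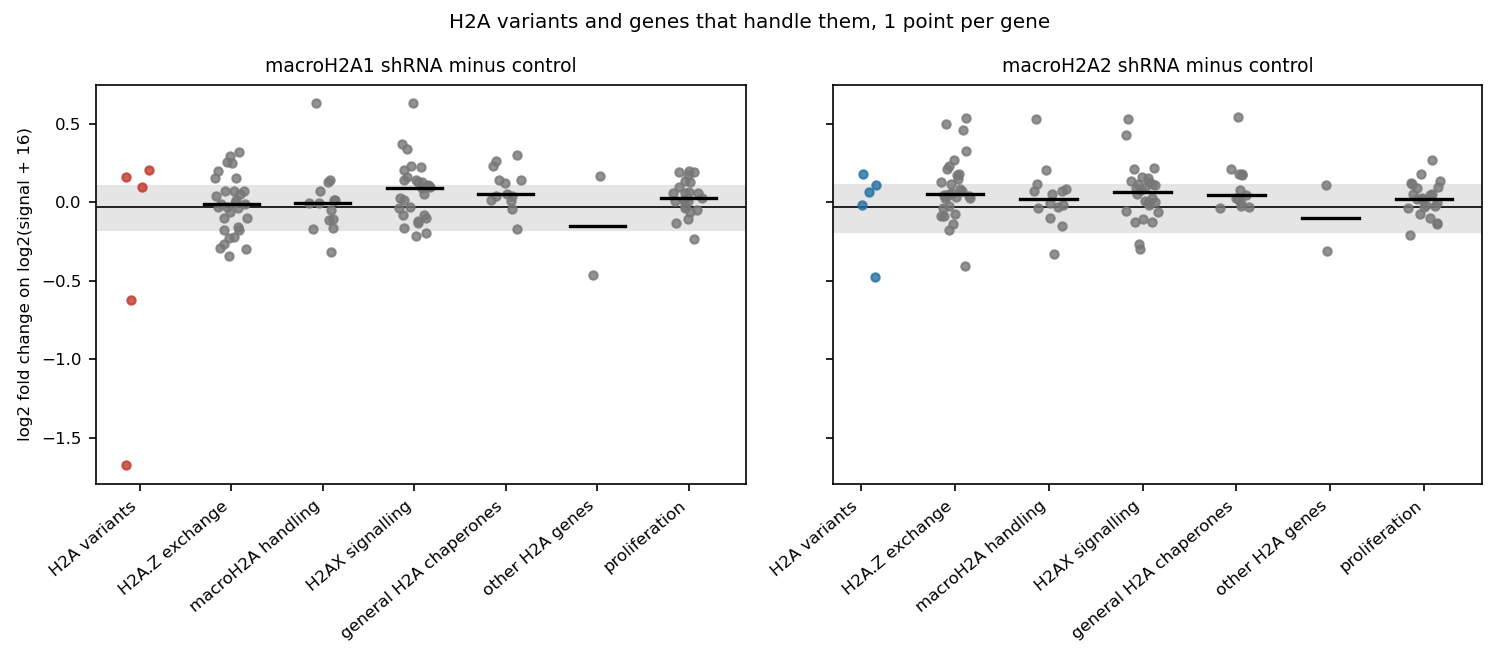
Log2 fold change from control on the log2(signal + 16) scale for the 5 tested variants (coloured) and for the genes of the 6 lists on H2A handling, other H2A genes and proliferation (grey, 1 point per gene by its brightest probe set), with list medians as thick bars, the median of all 27025 tested probe sets as a thin line and their middle 50% as the grey band. Macroh2a1 at -1.67 and H2ax at -0.62 lie below the genes of these 6 lists in the macroH2A1 shRNA comparison.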

How the data were processed

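RNA from 6 cultures of B16-F1 cells was measured on Affymetrix arrays after amplification with a 3′ in vitro transcription kit, per the labels' protocols. Each deposited file holds 1 linear signal intensity for every probe set, and the submitters' processing notes name MAS5 as the method. Its version and a genome build are not given in the sources used here. Of 45101 probe sets, 64 controls were left out. Groups and replicate numbers came from the sample titles.

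Probe sets with a mean signal at or above the 40th percentile (10.4 units) were tested, 27025 in all, of which 22703 had 1 symbol, for 12088 genes. One limma fit (limma 3.58.1, R 4.3.3, variance trend) on log2(signal + 16) held all 6 arrays, with 3 residual and 4.90 prior degrees of freedom, and p-values were adjusted by Benjamini-Hochberg over all tested probe sets, with a threshold of 0.05. A member under the filter took its value from a fit without it. The labels do not say whether replicate numbers mark a shared batch. Pairing by number was judged from the correlations given above, in which the part of the median signal offset was not tested. A fit with the number as a block (2 residual, 9.09 prior degrees of freedom) stands beside results it changes. Each gene is represented by its brightest probe set. The rule for named genes took every member, up to 4 genes per list with the smallest p in a comparison, and the 5 genes most like Macroh2a1. The members, lists and tests were chosen with earlier results of these data known. The fit without the block was run on simulated arrays with known changes, for macroH2A1 shRNA against control only. Those arrays held no deviation shared within a replicate set, and the fit with the block was not simulated. Alternatives were other pseudocounts, filters, scalings, the block, the groups compared alone and leaving out each array. Promoter windows were read from a RefSeq table with Python 3.11.15.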

Additional observations from a re-analysis of the deposited data

Results flagged for a closer look

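Macroh2a2 was flagged because its readings lay on opposite sides of control in the shRNA lines. Both macroH2A1 shRNA arrays (3.5 and 2.0) lay below the control arrays (6.1 and 7.5). Both macroH2A2 shRNA arrays (11.9 and 8.3) lay above them. In these comparisons 27.9% and 29.2% of tested probe sets did not overlap. The intervals of both differences from control, -0.66 to 0.10 and -0.19 to 0.57, include 0, so no direction can be given. The log2 difference between the shRNA lines was 0.47 (SE 0.16, limma unadjusted p 0.0213, adjusted p 1 in a fit without the filter). All 6 values lie near or under the filter of 10.4 units.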

How the results depend on the processing

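For 23 member differences 518 values were recomputed, of which 459 kept direction and side of the threshold, 20 came to pass it, 39 changed sign and 0 were lost. None of those that changed sign passed the threshold, and the furthest from 0 was 0.39. The cause was not tested for any of them. Without the block, 0 probe sets passed in each comparison under every setting run, with 3 for macroH2A1 shRNA against control when arrays were centred on their median as the exception. With the replicate block, which pairs the lines by number, 52 probe sets passed for macroH2A1 shRNA, 39 for macroH2A2 shRNA and 1 between the lines, or 22, 16 and 1 with quantile normalization, 32, 36 and 1 with a pseudocount of 1, and 0 in each without the filter. Leaving out 1 array gave 0 without the block, and with it 26 to 515, 3 to 804 and 3 to 204. In the order control, macroH2A1 shRNA and macroH2A2 shRNA, replicate 1 before replicate 2, the array left out gave 34, 50, 67, 26, 515 and 514 for the first comparison. The second gave 3, 96, 138, 133, 114 and 804, and the last 5, 5, 6, 3, 106 and 204.

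Macroh2a1 in the macroH2A1 shRNA line passed with the block at -1.67, at -1.69 with quantile normalization too and at -1.71 with a pseudocount of 1, but not without the filter (limma adjusted p 0.0807). Between the lines it passed at 1.65, 1.63 and 1.69, with 0.223 without the filter. Leaving out 1 array gave -1.90 to -1.45 and 1.43 to 1.88. In the macroH2A2 shRNA line its value was 0.054 with arrays centred on their median and -0.19 to 0.15 with 1 array left out. H2ax kept its direction in both lines under all 23 settings, from -0.76 to -0.48 and from -0.62 to -0.33. H2az1 turned to -0.0032 for macroH2A1 shRNA with quantile normalization, with or without the block. Its second probe set turned to -0.066 and -0.00015 in both comparisons by that scaling, and gave -0.12 to 0.29 and -0.045 to 0.21 with 1 array left out. The second H2aj probe set turned to 0.023 for macroH2A2 shRNA with quantile normalization and 0.065 with median centring, and gave -0.40 to 0.39 with 1 array left out and -0.29 to 0.49 for macroH2A1 shRNA. For macroH2A2 shRNA the ranges with 1 array left out were -0.034 to 0.16 for H2az2, -0.11 to 0.43 for its second probe set, -0.039 to 0.26 for H2aj and -0.33 to 0.37 for its dimmest probe set.

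The number of arrays limits precision, and a fit that leaves out an array with the block has little left to estimate the spread. For Macroh2a2, whose signals lie near or under the filter, 0 of the differences passed the threshold under any setting run. Protein and the phosphorylated form of H2AX were not measured.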

Other observations

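On either side of each variant the nearest protein-coding gene with a probe set of its own was taken, which made 12 neighbours, of which 10 were tested. Genes without such a probe set were passed over. The gaps ran from 0 kb for Aifm2 and Gm2137 at Macroh2a2 to 237 kb for Pitx1 at Macroh2a1. None passed the threshold with limma in either comparison. With macroH2A1 shRNA 0 of the 10 had an unadjusted limma p under 0.05, against 4.4% of all tested probe sets. With macroH2A2 shRNA 1 of the 10 did, against 3.98% of all. That 1 was Aifm2, a ferroptosis suppressor beside Macroh2a2, whose probe set is of the kind with shared probes. Aifm2 read 58.7 and 57.5 with control shRNA, 55.5 and 33.8 with macroH2A1 shRNA and 38.3 and 29.0 with macroH2A2 shRNA, with log2 fold changes of -0.31 (SE 0.25) and -0.58 (SE 0.25, limma adjusted p 1). It was named after its value was seen. The tested neighbours ran from -0.31 to 0.52 with macroH2A1 shRNA and from -0.58 to 0.14 with macroH2A2 shRNA. The 0.52 was that of Ddit4l, a stress-induced regulator that lies 236 kb from H2az1.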
